A study of Mus musculus with 12 samples.

Results

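Haemoglobin transcripts were followed in averages over T cells from mouse spleen. The genes were the 4 adult haemoglobin genes Hba-a1, Hba-a2, Hbb-bs and Hbb-bt, chosen by name, and they were all listed in each of the 8 deposited tables. They are 4 of the 2999 genes listed for CD4 cells and 4 of the 2851 listed for CD8a cells. Single-cell 3′ libraries were made from the spleens of 12 mice after lysis of erythrocytes, and the tables give 1 average per gene, mouse and cell type. The 4 groups of 3 mice were S100a9-/- C57Bl6/J mice after repeated social defeat (KO stress), C57Bl6/J mice after repeated social defeat (WT stress), S100a9-/- C57Bl6/J mice without stress (KO control) and C57Bl6/J mice without stress (WT control). Repeated social defeat lasted 10 days, behaviour was tested for 1 day, and spleens were taken on day 12. The labels used here give neither the age nor the sex of the mice nor which part of S100a9 is deleted. Each mouse gave both a CD4 and a CD8a average, so the cell types share their mice.

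Adult haemoglobin is a tetramer of a pair of alpha chains and a pair of beta chains, each holding a haem group that binds oxygen. Hba-a1 and Hba-a2 encode the alpha chain, and Hbb-bs and Hbb-bt encode the beta chains of C57BL mice. Their transcripts are among the most abundant of the erythroid lineage, and in mice the spleen is a site of red-cell production as well as of red-cell removal; haemoglobin is not among the genes that define T cells. In droplet libraries of blood-forming tissue these transcripts are a known part of the free RNA that droplets can take up, and the tables hold averages, without the cells that would show which droplets carried them.

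The mice labelled knockout were not free of S100a9 signal. In CD4 averages S100a9 was at 0.0228 to 0.0294 in mice labelled KO stress, against 0.0595 to 0.111 in WT stress, and at 0.0418 to 0.0493 in mice labelled KO control, against 0.00449 to 0.0167 in WT control. In CD8a averages it was at 0.00779 to 0.0403 in KO stress, against 0.0368 to 0.0889 in WT stress, and at 0.0307 to 0.0461 in KO control, against 0.00415 to 0.0337 in WT control. In CD4 averages all 3 mice labelled KO stress thus lay below all 3 labelled WT stress, the direction of the label. All 3 mice labelled KO control lay above all 3 labelled WT control, the direction opposite to the label. A 3′ tag outside the deleted part of the gene checks nothing, so the genotypes are called KO-labelled and WT-labelled throughout. The labelled cell types were borne out by their markers: Cd3d, a subunit of the T-cell receptor complex, was at 7.25 to 10.7 in CD4 averages, Cd4 there at 1.66 to 3.01, and Cd8a was at 3.38 to 5.27 in CD8a averages and at 0.0526 to 0.269 in CD4 averages.

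The 4 genes lie in 2 clusters (mm10, GENCODE M21). Hba-a1 (ENSMUSG00000069919.7) spans chr11:32283511-32284465 and Hba-a2 (ENSMUSG00000069917.7) chr11:32296489-32297298, both on the plus strand with 12023 bases between them. Hbb-bt (ENSMUSG00000073940.3) spans chr7:103812524-103813996 and Hbb-bs (ENSMUSG00000052305.6) chr7:103826534-103828096, both on the minus strand with 12537 bases between them. All are protein-coding and their main transcripts have 3 exons. The coding sequences of Hba-a1 and Hba-a2 were identical at 428 of 429 bases, and those of Hbb-bs and Hbb-bt at 443 of 444 bases. Of the 50-base windows in the last 300 bases of the transcript, where 3′ tags fall, 19.9% of those of Hba-a1 and 26.3% of those of Hba-a2 occurred in no other of the 4 transcripts, against 63.3% for Hbb-bs and 63.7% for Hbb-bt. It is unknown how reads that fit both copies of a pair were handled. The split between Hba-a1 and Hba-a2 is therefore uncertain, and to a lesser degree that between Hbb-bs and Hbb-bt. The split between alpha and beta genes is uncertain too. If such reads were dropped, the alpha genes, with fewer unique windows, would lose a larger part of theirs.

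The 120 bases upstream of the RefSeq start are shown for 3 of the 4 genes, 5′ to 3′ on the gene's strand. They come from the RefSeq promoters (GRCm38.p6), which held all 4 genes. GENCODE starts all 4 genes further upstream, Hba-a2 by only a few bases. Capitals mark matches on either strand to 4 motifs known from globin promoters: the CACCC box, a site of Klf-type factors, written as CACCC; the CCAAT box, written as CCAAT; the GATA site of erythroid factors, written as GATAA; and the TATA box, written as ATATAA. No matches overlap.
Hba-a2, chr11:32296372-32296491, plus strand: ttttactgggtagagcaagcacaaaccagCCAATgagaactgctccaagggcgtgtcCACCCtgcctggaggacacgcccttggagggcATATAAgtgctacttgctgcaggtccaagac
Hbb-bs, chr7:103827929-103828048, minus strand: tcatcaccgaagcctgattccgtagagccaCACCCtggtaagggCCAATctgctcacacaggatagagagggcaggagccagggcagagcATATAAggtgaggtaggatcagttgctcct
Hbb-bt, chr7:103813924-103814043, minus strand: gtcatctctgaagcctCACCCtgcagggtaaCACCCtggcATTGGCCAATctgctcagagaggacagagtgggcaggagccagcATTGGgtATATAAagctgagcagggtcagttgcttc
The Hba-a1 stretch aligned to that of Hba-a2 without a mismatch, and Hbb-bs and Hbb-bt were identical at 75.0% of aligned positions. The CACCC motif occurred within these 120 bases in all 4 genes, against 31.3% of 27025 promoters. The CCAAT motif did so in all 4 genes, against 22.1%, and the ATATAA motif in all 4, against 4.68%; 0.311% of promoters held all 3 of these. The GATAA motif was in none of these 120 bases and, within 250 bases upstream, in all 4 genes, against 23.0% of promoters. The motifs were chosen as known from globin promoters, so finding them here is a description. Their part in the levels across mice was not tested.

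Haemoglobin levels differed widely between mice of the same group. Values are the authors' average expression, read here as per 10000, since the listed genes of a mouse summed to between 7367 and 8270. In CD8a averages the sum of the 4 genes was 15.9, 1.39 and 5.66 in KO-labelled stressed mice 1, 2 and 3, against 0.688, 0.228 and 0.601 in WT-labelled stressed mice. It was 2.77, 2.39 and 0.351 in KO-labelled control mice, against 0.850, 0.0769 and 0.0342 in WT-labelled control mice. In CD4 averages the sum was 5.08, 1.74 and 1.70 in KO-labelled stressed mice, against 0.732, 0.197 and 2.36 in WT-labelled stressed mice. It was 5.52, 4.06 and 0.627 in KO-labelled control mice, against 0.141, 0.0917 and 0.0891 in WT-labelled control mice. The 3 WT-labelled control mice were low in CD4 averages and close to each other, and every other group held mice several-fold apart. In averages over cells, fewer cells carrying a transcript and less RNA per cell cannot be told apart.

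Hbb-bs was the most abundant of the 4 in each of the 24 averages. In CD8a averages it was at 8.53, 0.886 and 3.09 in KO-labelled stressed mice, against 0.344, 0.128 and 0.330 in WT-labelled stressed mice. In KO-labelled control mice it was at 1.31, 1.15 and 0.188, against 0.499, 0.0428 and 0.0297 in WT-labelled control mice. The stressed genotypes did not overlap, and the unstressed ones did. In CD4 averages Hbb-bs was at 2.80, 0.965 and 0.849 in KO-labelled stressed mice, against 0.294, 0.107 and 1.37 in WT-labelled stressed mice. In KO-labelled control mice it was at 2.94, 2.00 and 0.285, against 0.0857, 0.0611 and 0.0527 in WT-labelled control mice. Here the unstressed genotypes did not overlap, while WT-labelled stressed mouse 3 lay above 2 of the 3 KO-labelled stressed mice.

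Hba-a1 followed the same pattern at lower levels. In CD8a averages it was at 2.42, 0.187 and 0.864 in KO-labelled stressed mice, against 0.144, 0.0363 and 0.0734 in WT-labelled stressed mice. In CD4 averages it was at 1.03, 0.778 and 0.0953 in KO-labelled control mice, against 0.0173, 0.0121 and 0.00774 in WT-labelled control mice. Over the 12 mice Hba-a2 ranged up to 2.32 in CD8a averages (median 0.124) and 0.898 in CD4 averages (median 0.254), and Hbb-bt up to 2.63 (median 0.0863) and 0.649 (median 0.142). Hbb-bt was listed at 0 in WT-labelled control mouse 3 in both cell types, and Hba-a2 was listed at 0 in the CD8a average of that mouse. The plot of the 4 genes by mouse shows these levels on a log scale.

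**Figure D1:**
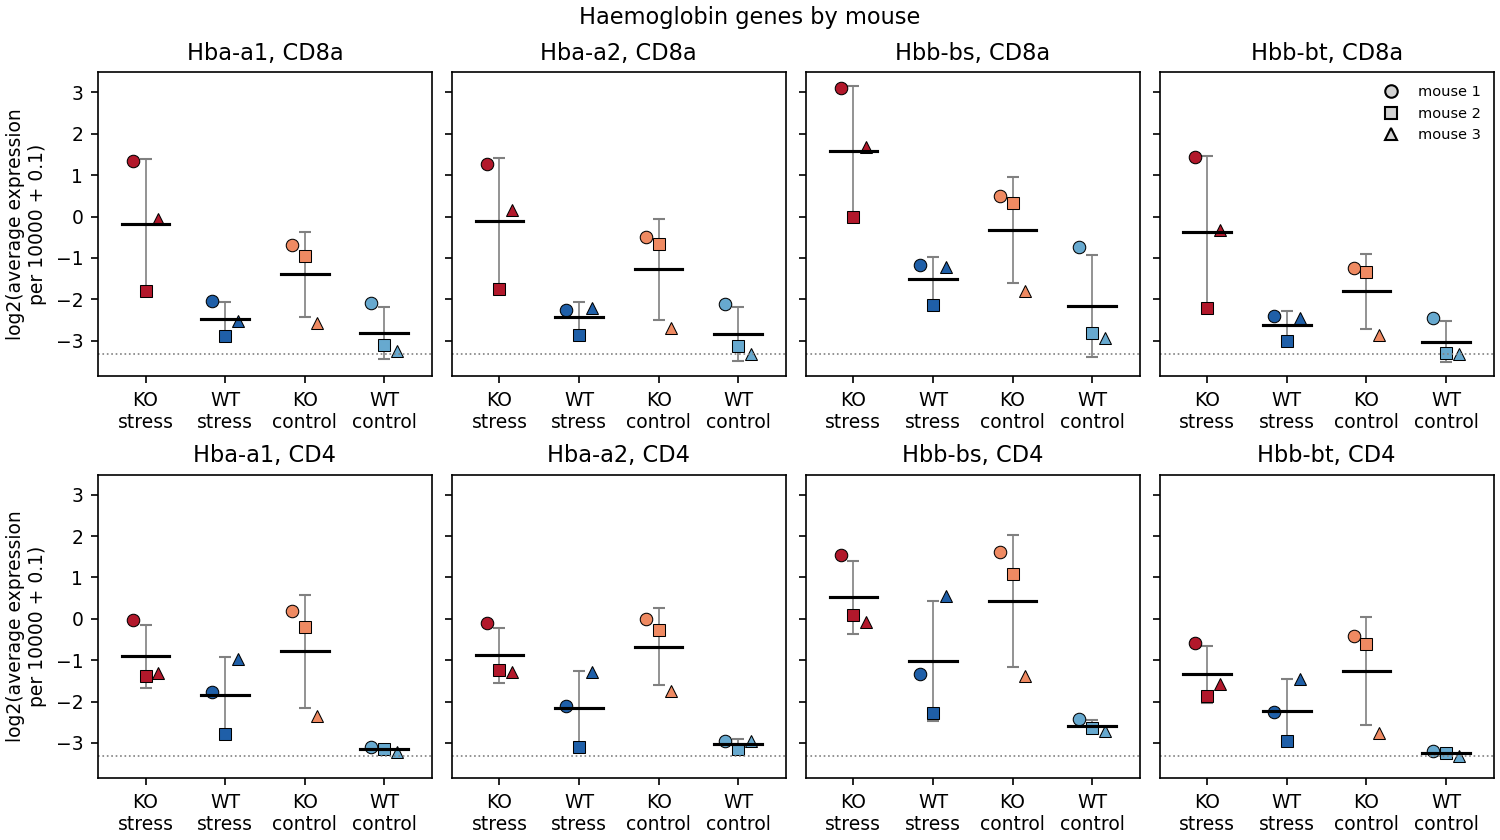
Log2 of average expression per 10000 plus 0.1 (vertical axis) for the 4 haemoglobin genes in CD8a (top) and CD4 averages (bottom), by labelled group; points are mice, black lines group means, grey bars 1 SD, the dotted line a value of 0. In CD8a averages the 3 KO-labelled stressed mice lie above the 3 WT-labelled stressed mice for all 4 genes, and in CD4 averages the 3 KO-labelled control mice lie above the 3 WT-labelled control mice for all 4 genes.

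Ordered by mean level, the 8 combinations of cell type and group ran alike for all 4 genes: CD8a KO stress was highest, then CD4 KO control, CD4 KO stress, CD8a KO control, CD4 WT stress, CD8a WT stress, CD8a WT control, and CD4 WT control was lowest. For the sum, CD8a KO stress averaged 7.65 ± 7.46 and CD4 WT control 0.107 ± 0.0291 (SD, n = 3 each). The ranges of each pair of neighbours in this order overlapped for all 4 genes, so no single step in it exceeded the spread between mice. The highest sum was 465 times the lowest in CD8a averages and 61.9 times the lowest in CD4 averages.

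The spread between mice of 1 group was larger for these genes than for nearly any other listed gene. The residual SD of Hbb-bs, on the log2(value + 0.1) scale around the 4 group means, was 1.21 in CD8a averages and 1.16 in CD4 averages, the largest of 2851 and of 2999 genes. The 4 genes held ranks 1 to 4 in CD8a averages and ranks 1, 2, 3 and 5 in CD4 averages, with Gzma, a granzyme of cytotoxic cells, between them at rank 4. The median residual SD of all listed genes was 0.134 in CD8a and 0.141 in CD4 averages. With the depth behind each average unknown, how much of this spread is counting error cannot be stated.

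Haemoglobin genes averaged higher in KO-labelled than in WT-labelled mice, with all 4 genes past the test in unstressed CD4 averages and 1 in stressed CD8a averages. These comparisons set mice labelled S100a9-/- against mice labelled wild type, without and under stress. S100a9 encodes a calcium-binding protein of neutrophils and monocytes. Its own values in CD4 averages were higher in KO-labelled than in WT-labelled mice without stress, and lower under stress. In CD4 averages of unstressed mice all 4 genes were called higher in KO-labelled than in WT-labelled mice (limma on all 12 mice, Benjamini-Hochberg adjusted p under 0.05), where 2.23% of the 2999 listed genes were called higher. Hbb-bs averaged 1.74 ± 1.35 in KO-labelled and 0.0665 ± 0.0171 in WT-labelled control mice (SD, n = 3 each), a log2 change of 3.02 ± 0.69 (SE, limma adjusted p = 0.033). The log2 change was 2.37 ± 0.55 for Hba-a1 (limma adjusted p = 0.033), 2.35 ± 0.45 for Hba-a2 (0.015) and 1.99 ± 0.50 for Hbb-bt (0.043). All 3 KO-labelled mice lay above all 3 WT-labelled mice for each of the 4 genes, which held for 19.6% of the listed genes. The calls rest on limma's shrinkage of each gene's variance towards that of other genes: with robust moderation the limma adjusted p was between 0.074 and 0.15 and none of the 4 was called. Leaving out KO control mouse 1 or mouse 2, or WT control mouse 2 or mouse 3, also left 0 of the 4 called, and leaving out WT control mouse 1 left 1.

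Under stress, in CD8a averages, Hbb-bs was called higher, at 4.17 ± 3.93 in KO-labelled and 0.268 ± 0.121 in WT-labelled stressed mice (SD, n = 3 each), a log2 change of 3.09 ± 0.66 (limma adjusted p = 0.043), where 0.316% of 2851 listed genes were called higher. The other 3 genes had log2 changes of 2.26 to 2.33 and limma adjusted p of 0.068 to 0.096. All 3 KO-labelled stressed mice lay above all 3 WT-labelled stressed mice for each of the 4 genes, against 10.7% of listed genes. Leaving out KO stress mouse 2 raised the count called to 4, and leaving out KO stress mouse 1 or 3 or any WT stress mouse lowered it to 0. The Hbb-bs call was also lost with robust moderation (limma adjusted p = 0.247), with no moderation (0.315), without the mean-variance trend (0.0912), with a pseudocount of 0.01 (0.0652) or 1 (0.0592), with centring (0.0519) and in a fit of the 2 groups alone (0.0572).

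In the remaining genotype comparisons none of the 4 was called. In CD8a averages of unstressed mice the log2 changes were 1.21 to 1.84 with limma adjusted p of 0.24 to 0.43, and 0.281% of listed genes were called higher. The groups overlapped for all 4 genes, while 12.8% of listed genes had all 3 KO-labelled mice above. Without adjustment 3 of the 4 had p under 0.05, as had 11.9% of listed genes. In CD4 averages of stressed mice the log2 changes were 0.88 to 1.54 with limma adjusted p of 0.32 to 0.60, and 0.0333% of listed genes were called higher. There 2 of the 4 had an unadjusted p under 0.05, as had 9.97% of listed genes.

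Over both stress states, a comparison added after the values had been seen, all 4 genes were called higher in KO-labelled mice in both cell types. The log2 changes were 1.73 to 2.47 in CD8a averages (limma adjusted p of 0.0062 to 0.027) and 1.43 to 2.28 in CD4 averages (limma adjusted p of 0.0073 to 0.038), where 1.65% and 1.73% of listed genes were called higher. An exact permutation test of each gene, exchanging genotype labels within stress state (6 against 6 mice, 400 arrangements, two-sided, smallest possible p 0.005, 16 such tests), gave p of 0.01 to 0.02 in CD8a averages and 0.01 to 0.015 in CD4 averages. With robust moderation none of the 4 was called in either cell type, the limma adjusted p being 0.14 to 0.23 in CD8a averages and 0.058 to 0.16 in CD4 averages. Leaving out 1 mouse left between 2 and 4 genes called in CD8a averages and between 1 and 4 in CD4 averages.

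Within 1 genotype, limma on all 12 mice called the beta genes under stress in CD8a averages of KO-labelled mice, and none of the 4 genes in the other stress comparisons. In CD8a averages of KO-labelled mice 2 of the 4 genes were called higher under stress, where 13.2% of listed genes were called higher and 34.4% lower. Hbb-bs averaged 4.17 ± 3.93 in stressed and 0.882 ± 0.606 in control mice (SD, n = 3 each), a log2 change of 1.91 ± 0.66 (limma adjusted p = 0.022), and Hbb-bt changed by 1.45 ± 0.58 (limma adjusted p = 0.048). Hba-a1 and Hba-a2 had log2 changes of 1.22 and 1.17 (limma adjusted p = 0.079 and 0.11). The groups overlapped for all 4 genes, KO-labelled stressed mouse 2 lying below KO-labelled control mice 1 and 2, while 18.9% of listed genes had all 3 stressed mice above. Leaving out that mouse brought the count called to 4, and leaving out KO stress mouse 1 or 3, or KO control mouse 3, to 0. Both calls were lost with robust moderation (limma adjusted p of 0.15 for Hbb-bs and 0.211 for Hbb-bt) and with no moderation (0.159 and 0.223).

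In CD4 averages of WT-labelled mice the 4 genes had log2 changes of 0.86 to 1.57 under stress and none was called (limma adjusted p of 0.057 to 0.12), where 22.9% of 2999 listed genes were called higher and 27.7% lower. Hba-a1 averaged 0.216 ± 0.184 in stressed and 0.0124 ± 0.00477 in control mice (SD, n = 3 each). Stressed mice lay above control mice without overlap for 3 of the 4 genes, against 30.1% of listed genes, and 2 had an unadjusted p under 0.05, which held for 55.9% of listed genes. Fitted on these 6 mice and on the genes the authors listed for this comparison alone, all 4 were called, as were 59.9% of the 2413 genes in that fit. Leaving out WT stress mouse 2 also gave 4 calls.

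In CD4 averages of KO-labelled mice no difference under stress was seen beyond the spread: the log2 changes were -0.21 to 0.08 (limma adjusted p of 0.75 to 0.94), where 12.7% of listed genes were called higher and 29% lower. With centring the signs of Hba-a1 and Hbb-bt turned, and with a common total that of Hbb-bs. The interval of the Hbb-bs change ran from -1.40 to 1.56 on the log2 scale. In CD8a averages of WT-labelled mice the log2 changes were 0.34 to 0.66 (limma adjusted p of 0.42 to 0.63), where 18.8% of listed genes were called higher and 35.5% lower. None of the 4 had an unadjusted p under 0.05 in either comparison.

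Whether the stress effect differed between genotypes was tested as an interaction, and none of the 4 genes was called. In CD8a averages the stress effect of KO-labelled mice minus that of WT-labelled mice was 0.76 to 1.26 on the log2 scale (limma adjusted p of 0.76 to 0.85), and in CD4 averages it was -1.49 to -1.07 (limma adjusted p of 0.55 to 0.57); none had an unadjusted p under 0.05, and no listed gene was called in either cell type (0%). The differences had opposite signs in the 2 cell types. Over both genotypes, a comparison added after the values had been seen, 1 gene was called higher under stress in CD8a averages, Hbb-bs (1.29 ± 0.47, limma adjusted p = 0.024), where 23.8% of listed genes were, and none in CD4 averages, where 25.3% were and where none of the 4 had an unadjusted p under 0.05. Leaving out 1 mouse gave between 0 and 4 calls in CD8a averages. The exact permutation p for stress (6 against 6 mice) was 0.11 to 0.235 in CD8a averages and 0.245 to 0.47 in CD4 averages.

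**Figure D2:**
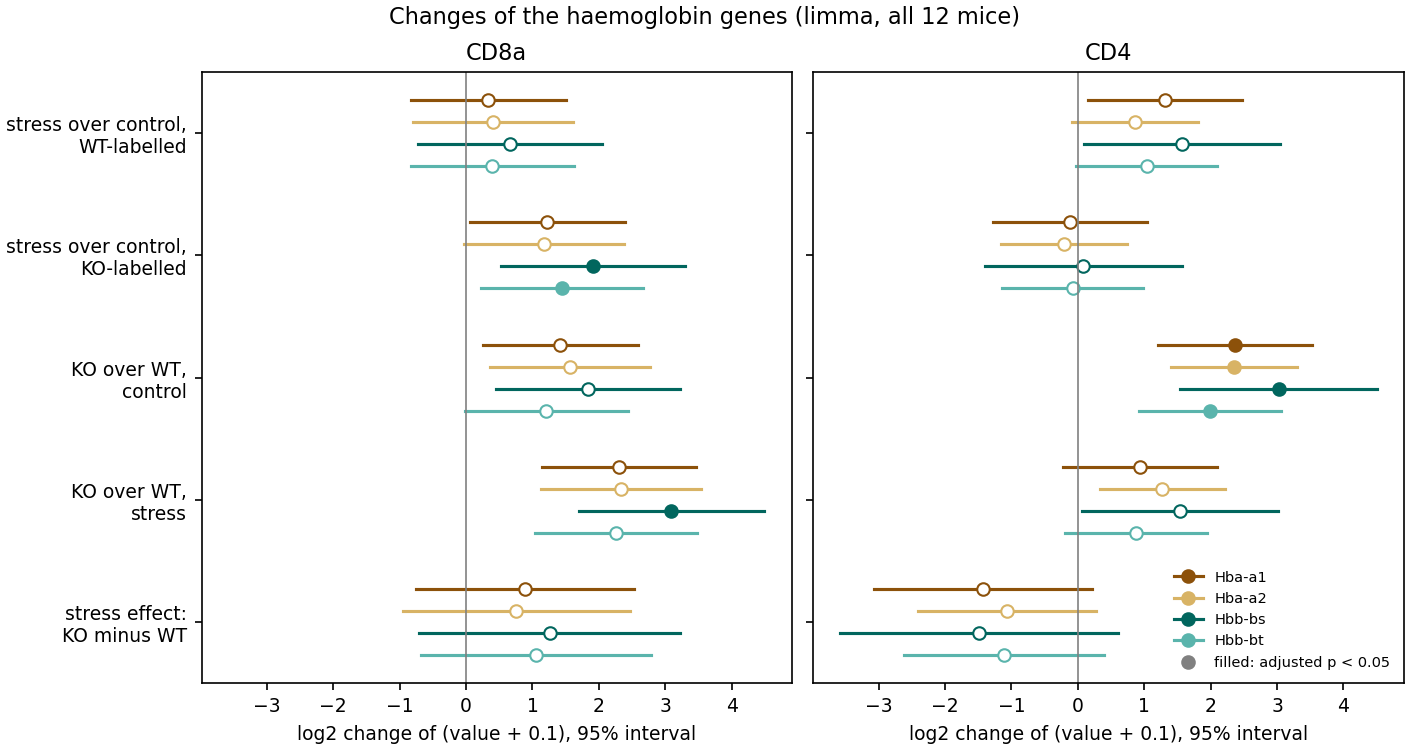
Log2 change of (value + 0.1) of the 4 genes with its 95% interval (horizontal axis) in 5 comparisons, in CD8a (left) and CD4 averages (right), from limma on all 12 mice; filled points have an adjusted p under 0.05. The filled points are the 4 genes in KO over WT without stress in CD4 averages, and, in CD8a averages, Hbb-bs in KO over WT under stress and Hbb-bs and Hbb-bt in stress over control of KO-labelled mice.

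No difference in level between the cell types passed the test. The mean difference, CD8a minus CD4 within the same mouse, was -0.04 to 0.07 on the log2 scale for the 4 genes (limma adjusted p of 0.78 to 0.95). Of the 2166 genes listed for both cell types, 52.8% were called in either direction and 17.3% were called higher in CD8a. The interval of the Hbb-bs difference ran from -0.42 to 0.55. All 4 genes were higher in the CD8a average in 3 mice, higher in the CD4 average in 5 mice and divided in 4. The CD8a sum was 3.13, 0.795 and 3.33 times the CD4 sum in KO-labelled stressed mice, 0.939, 1.16 and 0.255 times in WT-labelled stressed mice, 0.502, 0.589 and 0.560 times in KO-labelled control mice and 6.04, 0.838 and 0.383 times in WT-labelled control mice. The 3 KO-labelled control mice all had less in CD8a than in CD4 averages, and the other groups were mixed. The stress effect did not differ between cell types by the test (CD8a minus CD4 0.19 to 0.46 on the log2 scale, limma adjusted p of 0.90 to 0.97), where no listed gene was called (0%). None of the 4 had an unadjusted p under 0.05 in either of these tests.

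A mouse that was high in one cell type tended to be high in the other. Over the 12 mice, Pearson's r between the CD8a and the CD4 average of the same gene was 0.78 to 0.82 and Spearman's rho 0.80 to 0.85 (permutation test, 100000 permutations, 16 correlations, adjusted p of 0.00116 to 0.00195 for r). The permutations ran over all 12 mice, so these p also reflect differences between groups. After subtraction of group means r was 0.68 to 0.74, for which no p is given. Without KO-labelled stressed mice 1 and 3, the 2 farthest from the CD8a median, r of the values themselves was 0.84 to 0.92. In the plot of the sums of both cell types the mice lie on both sides of the line of equality.

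**Figure D3:**
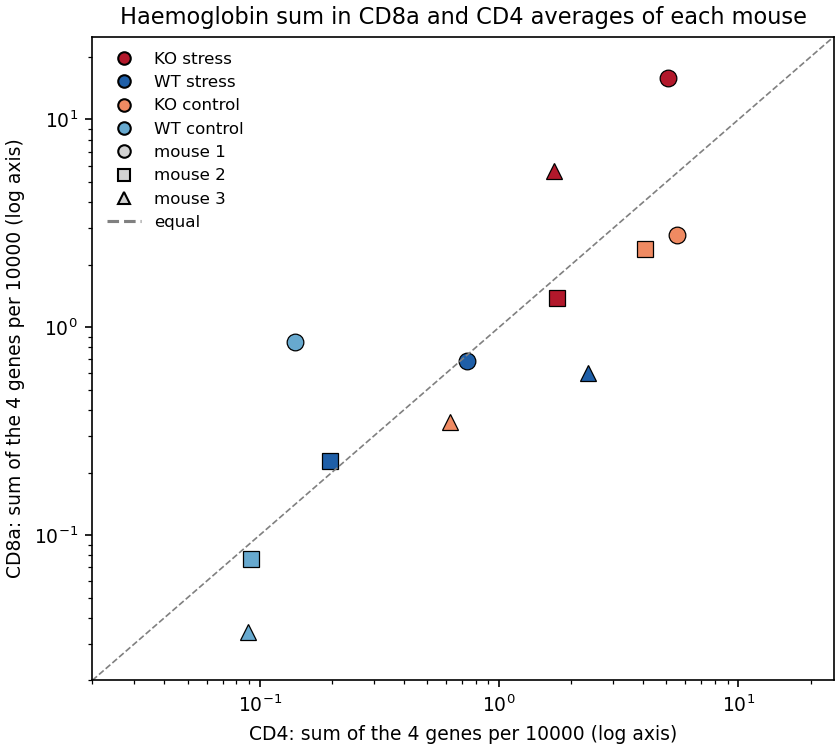
Sum of the 4 haemoglobin genes per 10000 in the CD8a average (vertical, log axis) against the CD4 average (horizontal, log axis) of each of 12 mice; the dashed line marks equal sums. KO-labelled stressed mouse 1 is at 15.9 and 5.08, WT-labelled control mouse 1 is farthest above the line (6.04 times) and WT-labelled stressed mouse 3 farthest below it (0.255 times).

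Within a cell type the 4 genes varied together from mouse to mouse. Pearson's r between any 2 of them was 0.97 to 0.994 in CD8a averages and 0.97 to 0.996 in CD4 averages over 12 mice (Spearman's rho 0.94 to 1; permutation test, adjusted p at most 2.67e-05 for r). It was 0.93 to 0.994 for deviations from the group means, and 0.957 to 0.997 without the 2 mice farthest from the median. These permutations too ran over all 12 mice, and no p is given for the deviations. Between an alpha and a beta gene r was 0.97 to 0.996.

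The makeup of the sum varied far less than the sum. Alpha genes made up a median of 34.1% of the sum over the 24 averages (13.0% to 46.9%), and 27.7% to 46.9% in the 16 averages whose sum was at least 0.5. These shares are of 3′ tags, are not scaled by transcript length and depend on how reads matching both copies were counted. Hba-a1 was at 0.997 times Hba-a2 (median of those 16 averages, 0.480 to 1.44), and Hbb-bs at 4.26 times Hbb-bt (2.64 to 7.58). In the 8 averages with a sum under 0.5 the ratios spread further, Hbb-bs being 3.78 to 20.4 times Hbb-bt in the 6 where Hbb-bt was above 0. The bar plot of shares shows similar divisions in mice whose sums differ many-fold.

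**Figure D4:**
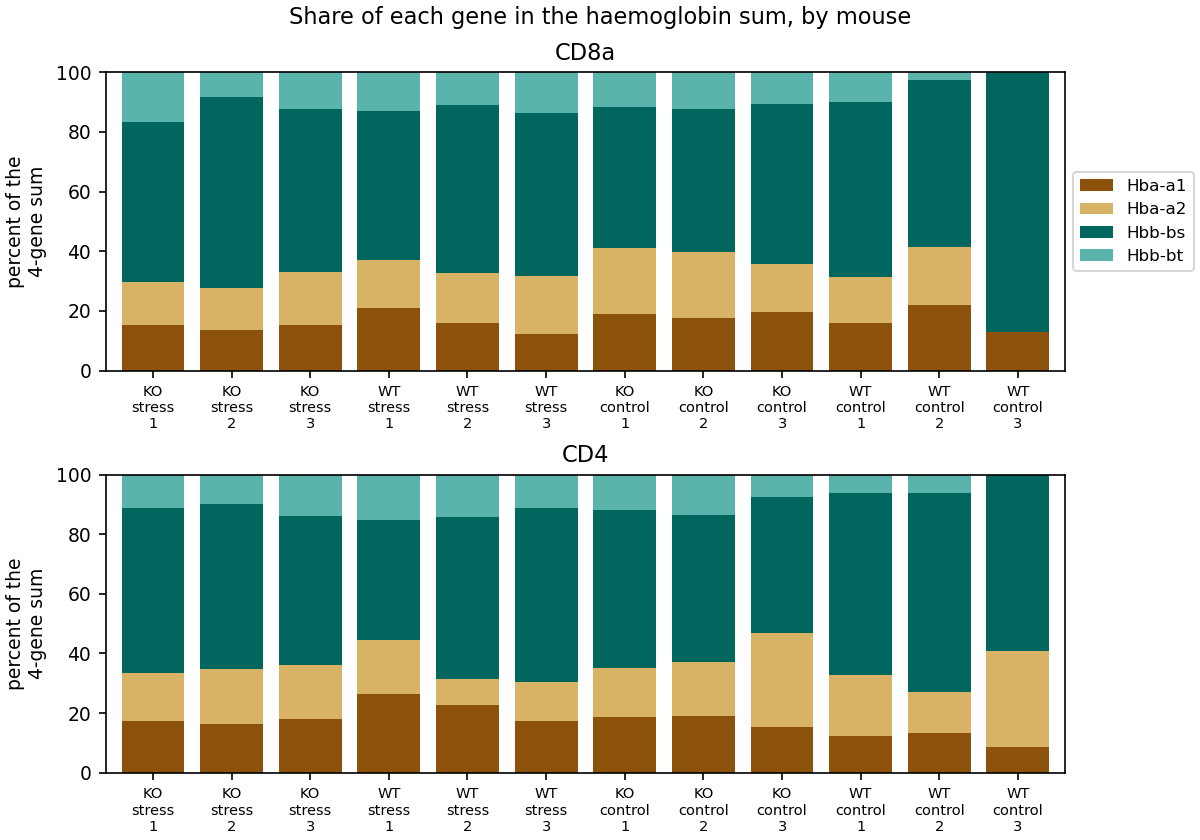
Share of each gene in the haemoglobin sum (percent, vertical axis) in CD8a (top) and CD4 averages (bottom) of 12 mice, ordered by labelled group and mouse. Hbb-bs holds the largest share in all 24 bars, and the largest departure is WT-labelled control mouse 3 in CD8a, where Hba-a2 and Hbb-bt are listed at 0 and the sum is 0.0342.

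Few other red-cell genes were listed beside the haemoglobin genes. Of 98 genes of haem synthesis, iron handling, globin chaperones and antioxidants, red-cell membrane, erythroid transcription factors and erythroid maturation, 14 were listed for CD8a and 16 for CD4 cells; the rest, and all 13 other globin genes looked for, were not analysed here. Most of the listed ones are active in lymphocytes too. Slc4a1, which encodes band 3, the anion exchanger of the red-cell membrane, was the most erythroid of them and was listed for CD8a cells. It was at 0.129, 0.00705 and 0.0382 in KO-labelled stressed mice, against 0, 0.00204 and 0.00432 in WT-labelled stressed mice, and at 0.0382, 0.0293 and 0.00601 in KO-labelled control mice, while it was listed at 0 in all 3 WT-labelled control mice. The mouse with the most haemoglobin signal, KO-labelled stressed mouse 1, also had the most Slc4a1. Pearson's r with the haemoglobin sum was 0.86 and Spearman's rho 0.82 over 12 mice, and r was 0.76 without KO-labelled stressed mice 1 and 3; no p is given for a sum over these genes. No comparison called Slc4a1, whose values lie mostly below the added 0.1. How listed genes were chosen is not given. Slc4a1 was at or near 0 in WT-labelled mice, so it may be listed only because of KO-labelled mice. Its difference between genotypes and its r may partly follow from that choice and are a description.

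**Figure D5:**
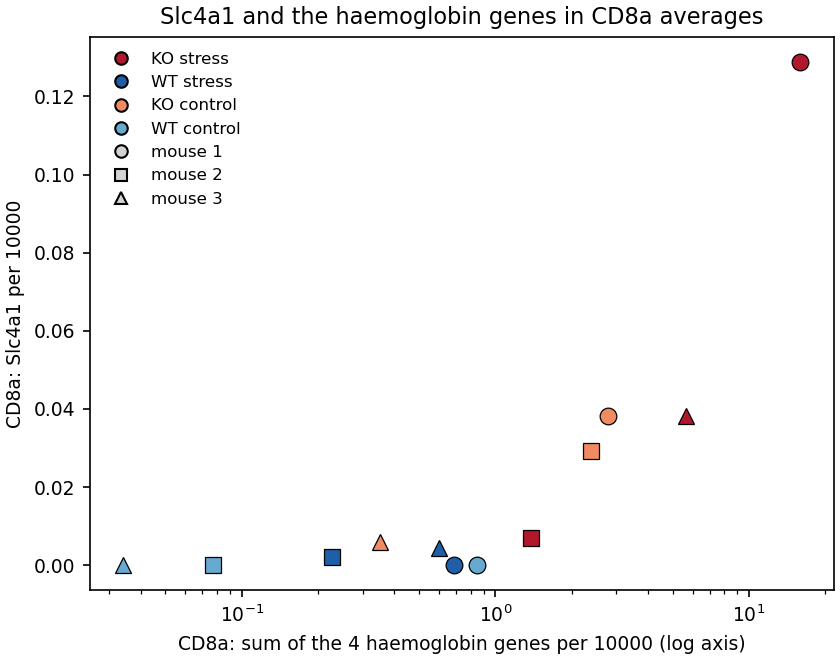
Slc4a1 (vertical, average expression per 10000) against the sum of the 4 haemoglobin genes (horizontal, log axis) in the CD8a averages of 12 mice. The 4 mice with Slc4a1 above 0.01 are KO-labelled and have haemoglobin sums of 2.39 to 15.9; the other 8 lie at or under 0.00705 with sums of at most 1.39, the 3 WT-labelled controls at 0.

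Among haem synthesis genes Fech, which encodes ferrochelatase, the last enzyme of the pathway, was called higher in CD8a averages of KO-labelled stressed mice, at 0.120 to 0.238 against 0.0629 to 0.0748 in WT-labelled stressed mice (log2 change 0.72, limma adjusted p = 0.035). It was called lower under stress in WT-labelled mice (-0.45, limma adjusted p = 0.014). Urod, an earlier enzyme of the pathway, correlated with the CD8a haemoglobin sum at r = 0.85 over a range of only 1.73-fold, and with the CD4 sum at 0.18; it was called higher under stress in CD4 averages of WT-labelled mice (0.43, limma adjusted p = 0.0077). Glrx5 (r = 0.72 in CD8a, 0.58 in CD4) had no call, Cpox was called lower under stress in CD8a averages of WT-labelled mice (-0.52, limma adjusted p = 0.00099), and Alad (r = -0.23 in CD4) had no call.

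Of the iron genes, Slc40a1, which encodes ferroportin, the iron exporter of macrophages that recycle red cells, was called higher in CD4 averages of KO-labelled control mice, at 0.0536 to 0.0845 against 0.00934 to 0.0163 in WT-labelled control mice (log2 change 0.58, limma adjusted p = 0.026). It was called lower under stress in KO-labelled mice (-0.47, limma adjusted p = 0.0052), where haemoglobin genes were not. All Slc40a1 values lay below the added 0.1, and those outside KO-labelled control mice were 0.00712 to 0.0347. Like Slc4a1, it may be listed only because of the mice where it is high, here KO-labelled controls. Its calls may partly follow from that choice and are a description. Hmox1, the haem-degrading oxygenase, was also called lower under stress in KO-labelled mice in CD4 averages (-0.54, limma adjusted p = 0.041). The ferritin genes Fth1 and Ftl1 were called higher under stress in WT-labelled mice in both cell types (0.25 to 0.37), and Ftl1 also in KO-labelled mice (0.39 in CD8a and 0.37 in CD4).

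The antioxidant gene Prdx2 was called higher under stress in WT-labelled mice (0.25 in CD8a and 0.52 in CD4) and in KO-labelled mice in CD8a averages (0.34), and Gpx1 in none. The membrane-skeleton genes Epb41 in CD8a and Add1 and Sptan1 in CD4 averages, and the transcription factor genes Klf3 in both cell types, Zbtb7a in CD8a and Bcl11a in CD4, were called lower under stress in both genotypes (-1.04 to -0.53). Their r with the haemoglobin sum was -0.31 to -0.17. Of the maturation genes Bnip3l, Isg20, Pim1 and Gclm none was called. Of the 14 genes listed for CD8a, 3 were called higher and 5 lower under stress in WT-labelled mice, where 18.8% and 35.5% of all listed genes were, and 2 and 3 under stress in KO-labelled mice, against 13.2% and 34.4%. None of the 14 was called for genotype without stress, where 0.281% of listed genes were called higher, and 1 was called higher for genotype under stress, against 0.316%. Of the 16 genes listed for CD4, 4 were called higher and 4 lower under stress in WT-labelled mice, against 22.9% and 27.7% of all listed genes, and 1 and 6 under stress in KO-labelled mice, against 12.7% and 29%. For genotype 1 of the 16 was called higher without stress, against 2.23%, and none under stress, against 0.0333%. The median log2 change of these genes was between -0.20 and 0.20 in each of these 8 comparisons, against medians of -0.10 to 2.36 for the 4 haemoglobin genes.

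By likeness of pattern, the 5 other genes with the highest r to the haemoglobin sum were Psma1 (0.90), Gmnn (0.90), Vamp8 (0.86), Capza1 (0.86) and Urod (0.85) of 2586 genes in CD8a averages, and Cstb (0.93), Ppp1r11 (0.91), Cmtm7 (0.89), Reep5 (0.88) and Anxa2 (0.86) of 2686 in CD4 averages, over 12 mice. Their highest and lowest mice differed by 1.26 to 6.46-fold, far less than those of the haemoglobin genes. Being the top of a long ranking, these r values are a description.

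Where haemoglobin genes were called for genotype within 1 stress state, some monocyte, macrophage, dendritic-cell or neutrophil markers were called higher too. In CD4 averages 11 of 22 monocyte, macrophage and dendritic-cell markers were listed. They summed to 3.78 to 6.92 in KO-labelled control mice, against 2.87 to 3.13 in WT-labelled control mice. Of these markers 3 were called higher, where 2.23% of listed genes were. Slc40a1 and Hmox1, also in the erythroid lists, are in this list, and of these only Slc40a1 was called. Itgax of this list was listed at 0 in all 3 WT-labelled control mice, and Slc40a1 was at 0.00934 to 0.0163 there. Markers at or near 0 in WT-labelled mice, here and in CD8a averages, may be listed only because of KO-labelled mice. The calls and sums of markers may partly follow from that choice and are a description. The 6 of 18 neutrophil markers listed summed to 0.496 to 1.20 in KO-labelled control mice, against 0.113 to 0.318 in WT-labelled control mice, where Ngp, a neutrophil granule protein gene, was listed at 0 in all 3. The 7 of 13 natural killer markers summed to 4.66 to 8.45, against 3.04 to 4.90. The 9 of 19 B-cell and MHC class II markers summed to 7.86 to 12.1, against 3.61 to 9.49. The sums of monocyte and of neutrophil markers did not overlap between these groups, those of natural killer and B-cell markers did, and no neutrophil, natural killer or B-cell marker was called. In CD8a averages the 6 listed neutrophil markers summed to 4.78 to 7.76 in KO-labelled stressed mice, against 4.81 to 5.25 in WT-labelled stressed mice, and 1 of them was called higher, where 0.316% of listed genes were; the granule genes Ngp, Lcn2 and Camp were, like Slc4a1, listed at 0 in all 3 WT-labelled control mice. The 3 of 13 natural killer markers summed to 25.3 to 46.7, against 24.9 to 30.7, and the 4 of 22 monocyte, macrophage and dendritic-cell markers to 2.93 to 3.26, against 2.96 to 3.20. There 11 of 19 B-cell and MHC class II markers summed to 5.27 to 6.49, against 4.80 to 7.12. All 4 sums overlapped between the stressed genotypes. In CD8a averages S100a8 and S100a9 were at most 0.127 and 0.0889. In WT-labelled control mice they were at most 0.0137 and 0.0337, and the neutrophil sum was 3.04 to 3.96. With Ngp, Lcn2 and Camp at 0 there, that sum rested almost wholly on the single remaining gene of the 6. Marker sums are levels of the listed genes, whichever cells carried them, and do not measure neutrophils or natural killer cells. None of 14 platelet markers was listed. The part of these other cells in the haemoglobin differences was not tested.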

How the data were processed

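Spleen cells of 12 mice were sequenced as single-cell 3′ libraries after erythrocyte lysis, per the labels' protocols, and processed with Cell Ranger 2.1.1 on mm10, per the submitters' processing notes. The values are a signal the authors deposited: average expression per mouse in CD4 or CD8a cells, linear, per the file headers. How cells were filtered, assigned and averaged, and how the genes of each table were chosen, is not given in the sources used here; tests therefore ran on genes the authors had selected. Depth is unknown, so no counting interval is given. Columns were matched to mice by the sample number in the titles; 0 columns were left unused. The tables of a cell type agreed in every shared value and were joined. Replicates are separate mice.

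The 4 groups were fitted in limma 3.58.1 (R 4.3.3) on log2(value + 0.1) with a mean-variance trend, 1 fit per cell type, Benjamini-Hochberg over all listed genes, called at adjusted p under 0.05; log2 changes understate those of genes near 0. The procedure was tested on simulated data. CD8a was compared with CD4 on within-mouse differences. Genes named were the 4 members, every listed gene of the erythroid lists, and the 5 most alike in pattern per cell type, plus S100a9, subunit markers of the cell types and Gzma, the last named after its values were seen. Members and lists were chosen with earlier results of these data known. Robust and no moderation, genotype over both stress states and stress over both genotypes were added after seeing the data. Alternatives covered pseudocount, low-value filter, scaling, trend, weights, block, samples fitted and each mouse left out. Mice with the same number in different groups were not paired: deviations from the group means correlated at -0.24 to 0.24. Promoters and coordinates came from RefSeq (GRCm38.p6) and GENCODE M21, aligned with Biopython 1.88.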

Additional observations from a re-analysis of the deposited data

How the results depend on the processing

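The number of the 4 haemoglobin genes called depended on the fit. With robust moderation, and likewise with no moderation, 0 were called in every comparison; over all listed genes, those calls were 89 and 4 for genotype without stress in CD4, against 97. Without the mean-variance trend 1 was called for genotype without stress in CD4, 1 for genotype over both stress states in each cell type, 1 for stress in KO-labelled mice in CD8a and 0 for genotype under stress in CD8a. With a pseudocount of 1, the counts were 1 for genotype without stress in CD4, 1 for genotype over both stress states in each cell type and 0 for genotype under stress in CD8a. With a pseudocount of 0.01 they were 4 for stress in WT-labelled mice in CD4, 1 for stress in KO-labelled mice in CD8a, 0 for genotype under stress in CD8a and 2 for stress over both genotypes in each cell type. Centring each mouse on its median, which moved the median change of all genes by up to 0.20 (stress in WT-labelled mice, CD8a), gave 2 for stress in WT-labelled mice in CD4 (59.6% of all listed genes were called either way), 4 for stress in KO-labelled mice (69%) and 4 for stress over both genotypes (86.7%) in CD8a, and 0 for genotype under stress in CD8a. A common total, which moved it by at most -0.11 (stress in KO-labelled mice, CD4), gave 1 for stress in KO-labelled mice in CD8a. Sample weights gave 2 for stress in WT-labelled mice in CD4 and 1 for stress in KO-labelled mice in CD8a. Fitting the 2 compared groups alone gave 3, 1, 1 and 0 calls for stress in WT-labelled mice (CD4), genotype without stress (CD4), stress in KO-labelled mice (CD8a) and genotype under stress (CD8a), and on the authors' genes for the comparison 4, 4, 1 and 4, where 59.9%, 21.8%, 40% and 61.6% of the genes fitted were called. Taking the replicate number as a block gave 4 for genotype under stress and 3 for stress over both genotypes in CD8a, and changed no other count by over 1.5 times; the numbers did not pair the mice. Leaving out the lowest 25% of genes, which removed Hbb-bt in CD4, changed no count by over 1.5 times. In the other comparisons 0 genes were called under all these settings. Leaving out 1 mouse gave 0 to 4 calls for stress in WT-labelled mice and for genotype without stress in CD4, 1 to 4 for genotype over both stress states in CD4, 0 to 4 for stress in KO-labelled mice, genotype under stress and stress over both genotypes in CD8a, and 2 to 4 for genotype over both stress states in CD8a. The causes were not tested.

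Directions changed in values that were not called. For stress in KO-labelled mice in CD4, Hba-a1 was 0.020 when centred, Hbb-bs -0.046 with a pseudocount of 1, -0.039 with a common total and -0.21 with weights, and Hbb-bt 0.097 with a pseudocount of 0.01 and 0.062 when centred; with 1 mouse left out the ranges were -0.90 to 0.36 (Hba-a1), -0.74 to 0.13 (Hba-a2), -0.82 to 0.67 (Hbb-bs) and -0.83 to 0.35 (Hbb-bt). For CD8a minus CD4, Hba-a1 was 0.015 with a pseudocount of 1, Hba-a2 -0.075 with a pseudocount of 0.01, and with weights Hba-a2 was -0.019, Hbb-bs -0.041 and Hbb-bt -0.012; with 1 mouse left out the ranges were -0.13 to 0.10 (Hba-a1), -0.069 to 0.18 (Hba-a2), -0.095 to 0.22 (Hbb-bs) and -0.065 to 0.23 (Hbb-bt). For the difference of stress effects, CD8a minus CD4, Hba-a1 was -0.12 with a pseudocount of 0.01. With 3 mice a group, 3 against 3 cannot reach an exact p under 0.1, so single comparisons rest on the model.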
